A study of Homo sapiens with 4 samples.

Results

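The genes described here are 10 imprinted genes, KCNQ1OT1, CDKN1C, PHLDA2, SLC22A18, H19, IGF2, PEG10, PEG3, MEST and GNAS, out of 57014 named rows of a gene count table. They were chosen by gene name, with the low KCNQ1OT1 level in knockout cells already known, so the knockout-to-control differences of these 10 genes are given as a description without a test. Poly(A)-selected RNA of 22Rv1 cells, a human prostate cancer line grown in RPMI-1640 with fetal bovine serum, was sequenced in 4 libraries: 2 with CD276 knocked out (sgCD276 in the library names, replicates 1 and 3) and 2 wild-type controls (sgGFP, replicates 1 and 3). CD276 codes for B7-H3, an immune checkpoint molecule on the cell surface, and DNA methylation and B7-H3 as targets in prostate cancer are the topic of the series. The labels do not say whether the knockout libraries come from 1 clone or from a pool of cells, nor that the biological replicates of the design were grown as separate cultures. The p-values therefore cover only the spread among these libraries.

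Imprinted genes are transcribed mainly from the copy inherited from 1 parent. DNA methylation laid down in the egg or sperm at an imprinting control region sets the parental copies apart. In the KCNQ1 domain of human chromosome 11 the unmethylated paternal copy of the control region serves as the promoter of KCNQ1OT1, a long nuclear RNA transcribed antisense to KCNQ1, and in cis it keeps neighbouring genes such as CDKN1C, PHLDA2 and SLC22A18 silent on that copy. Gene counts do not separate the parental copies, so nothing below is a measurement of allele usage or of methylation.

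Library totals ran from 20079050 to 25802417 counts, so 1 CPM, a count scaled to the library total, stood for 20.1 to 25.8 counts. Levels are normalized CPM, in which that total is corrected by the trimmed mean of M-values, and differences are log2 fold changes (knockout over control) with their SE. For genes outside the 10, called means an adjusted p under 0.05 (quasi-likelihood test of edgeR, Benjamini-Hochberg) among the 18043 genes tested. Of all these genes 22.8% were called, 9.87% as higher and 12.9% as lower. The targeted gene CD276 was at 23.7 and 26.3 normalized CPM in the knockouts, against 47.4 and 54.4 in the controls (-1.03 ± 0.16, edgeR adjusted p = 0.00561, and 0.0812 without control replicate 3). The summed level of 8 prostate epithelial markers was 2689 to 3478 normalized CPM in the knockouts and 3437 to 3563 in the controls, with none of the 8 at 0 in all libraries. The sum of 4 fibroblast markers was 33.7 and 45.6 normalized CPM in the knockouts and 59.7 and 53.9 in the controls, with COL1A1 called lower (edgeR adjusted p = 0.0139), LUM called higher (0.0244) and DCN and COL1A2 not called. Of 4 leukocyte and 3 endothelial markers, CD3E, PECAM1 and CDH5 had 0 counts in every library, and each sum stayed at or below 2.01 normalized CPM. The Pearson correlation of log2 CPM over genes, which are no independent points, was 0.979 between the knockout libraries and 0.990 between the controls. The chi-square per gene for replicates of a group was 48.35 in the knockouts and 6.193 in the controls. By this measure the replicate spread was wider in the knockout group.

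The promoter of MEST is shown as an example of an imprinted promoter with many CpG, the window with the most CpG among those RefSeq gives for it (GRCh38.p14, chr7:130491835-130492134, plus strand, 250 bases before to 50 after an annotated start). Capitals mark TGCCGC on either strand, the hexamer that the imprint-protecting zinc finger protein ZFP57 binds when it is methylated. The first 2 matches overlap.
MEST promoter: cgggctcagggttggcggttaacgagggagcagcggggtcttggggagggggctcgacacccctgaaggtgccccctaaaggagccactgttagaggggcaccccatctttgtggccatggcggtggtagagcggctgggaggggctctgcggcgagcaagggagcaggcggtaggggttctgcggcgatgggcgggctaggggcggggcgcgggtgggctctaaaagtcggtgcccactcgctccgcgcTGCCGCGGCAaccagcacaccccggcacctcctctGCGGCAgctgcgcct
It holds 25 CpG and 3 matches, while 16.7% of the 35116 promoters in the RefSeq table hold at least 1 match and the median promoter has 14 CpG. Windows in that table matched 3 of the 10 genes. The 5 MEST windows overlap in part and hold 0 to 3 matches, the H19 window holds 6 CpG and 0 matches, and the 6 GNAS windows hold 10 to 43 CpG and 0 or 1 match. A match describes the letters only, and ZFP57 itself had 0 counts in every library, which allows up to 0.155 normalized CPM in the shallowest of them (3 counts, counting error only).

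KCNQ1OT1 was far lower in both knockout libraries than in both controls. The gene (chromosome 11, 2608328 to 2699994, minus strand, 1 exon of 91667 bases) had 65 and 34 counts in the knockouts, against 319 and 272 in the controls. Its level was 2.48 and 1.31 normalized CPM in the knockouts and 14.3 and 14.0 in the controls, so the groups did not overlap and the controls lay close together. The mean was 1.90 ± 0.82 normalized CPM in the knockouts and 14.2 ± 0.17 in the controls (SD, n = 2 each), a log2 fold change of -2.90 ± 0.30. Of all genes tested 187 had a lower log2 fold change, 11 of them with at least 5 normalized CPM in a group. The difference was -1.55 after correction for GC content and transcript length by offsets, a correction for which 1 other tested gene had a transcript at least as long. Over the other alternatives it ran from -3.41 to -2.45. The transcript lies within KCNQ1 on the opposite strand and shares 1.23% of its bases with annotated exons of KCNQ1 and small RNA family entries. In bulk RNA, fewer cells that express the gene and less RNA per cell cannot be told apart.

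**Figure D1:**
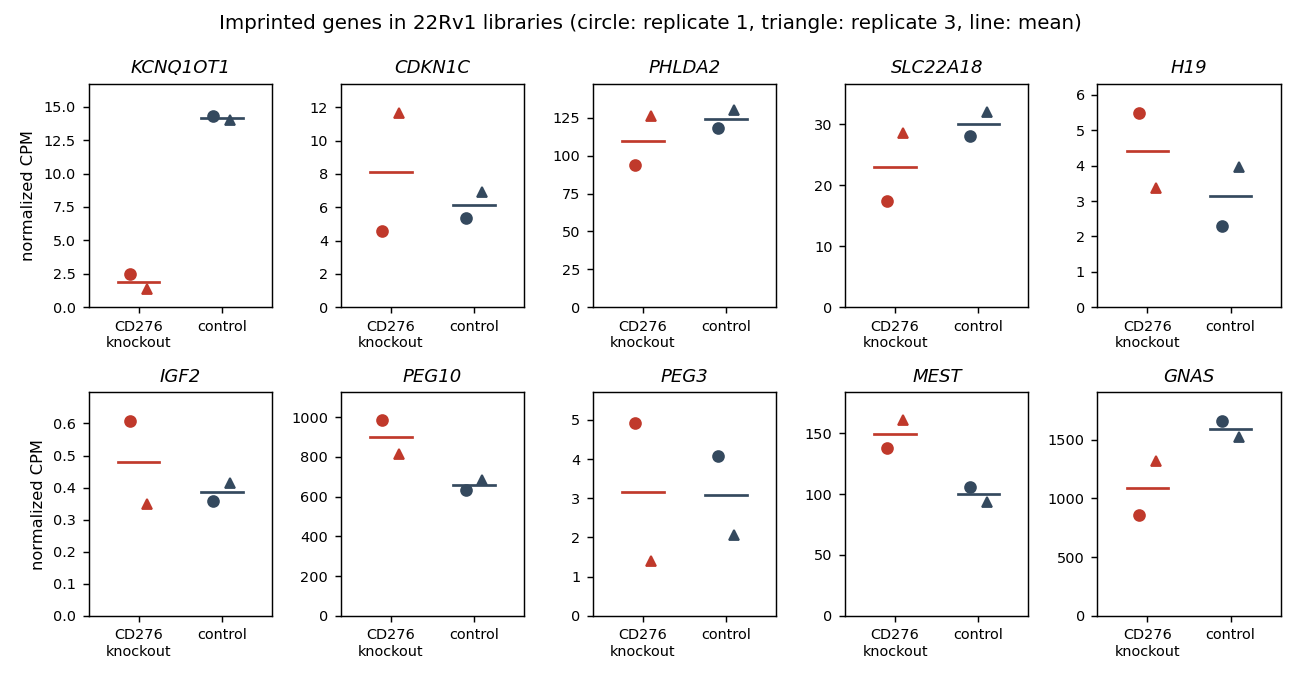
Normalized CPM (y axis, from 0, a separate scale per gene) of the 10 imprinted genes in the 2 CD276 knockout libraries (left, red) and the 2 controls (right, dark); circles are replicate 1, triangles replicate 3 and lines the group mean. KCNQ1OT1 lies at 1.31 and 2.48 in the knockouts, below 14.0 and 14.3 in the controls, while for CDKN1C, PHLDA2, SLC22A18, H19, IGF2 and PEG3 the groups overlap.

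The 3 protein-coding genes of the domain did not separate the groups as KCNQ1OT1 did. CDKN1C, which encodes the cyclin-dependent kinase inhibitor p57KIP2, is expressed mainly from the maternal copy (chromosome 11, 2883213 to 2885773, minus strand). It stood at 4.57 and 11.6 normalized CPM in the knockouts, against 5.37 and 6.92 in the controls. Knockout replicate 3 was the highest of the 4 libraries and knockout replicate 1 the lowest. The log2 fold change was 0.40 ± 0.40, with 0.94 without knockout replicate 1 and -0.35 without knockout replicate 3.

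PHLDA2, a pleckstrin homology domain protein that restrains placental growth in the mouse, was at 93.6 and 126 normalized CPM in the knockouts and at 118 and 130 in the controls (chromosome 11, 2928273 to 2929455, minus strand). The knockout values bracketed the lower control value, with a log2 fold change of -0.18 ± 0.17. It was 0.36 with GC and length offsets, 0.03 without knockout replicate 1 and -0.34 without knockout replicate 3. SLC22A18, an organic cation transporter-like protein, was at 17.4 and 28.6 normalized CPM in the knockouts and at 28.03 and 32.01 in the controls (chromosome 11, 2899721 to 2925246, plus strand). Knockout replicate 1 lay below the other 3 libraries, and the log2 fold change was -0.38 ± 0.23, with -0.06 without knockout replicate 1 and -0.72 without knockout replicate 3. All 3 genes had a lower level in knockout replicate 1 than in knockout replicate 3. SLC22A18 shares 4.27% of its exonic bases with SLC22A18AS on the opposite strand, while CDKN1C and PHLDA2 share none.

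Around them, 1 of the 9 tested neighbours of the domain was called lower, a share of 11.1% that is near the 12.9% of all genes tested. Of the 13 neighbours listed, KCNQ1-AS1 and KCNQ1DN had 0 counts in every library, and TRPM5 and CD81-AS1 were too low to test. TSSC4 (chromosome 11, 2400488 to 2403878, plus strand) fell to 49.2 and 57.2 normalized CPM in the knockouts, against 72.01 and 79.6 in the controls. Its log2 fold change was -0.51 ± 0.14 (edgeR adjusted p = 0.0368). The call was lost with scaling by library totals (edgeR adjusted p = 0.0768), with GC and length offsets (0.481) and without control replicate 1 (0.287) or 3 (0.393), which leave 1 residual degree of freedom. No neighbour was called higher (0 by edgeR, 1 at an unadjusted p under 0.05, 0 by DESeq2), beside 9.87% of all genes tested by edgeR. The median log2 fold change of the 9 was -0.03, against 0.00 over all genes tested.

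KCNQ1 itself, a voltage-gated potassium channel whose gene holds KCNQ1OT1 on the opposite strand, was barely detected. It had 14 and 25 counts in the knockouts and 9 and 9 in the controls, a log2 fold change of 0.78 ± 0.56 that was not called (edgeR adjusted p = 0.338). The knockout values lay above the controls, as did those of SLC22A18AS, the antisense partner of SLC22A18, with 12 and 19 counts in the knockouts and 3 and 4 in the controls (1.79 ± 0.67, edgeR adjusted p = 0.0866). SLC22A18AS shares 12.7% of its exonic bases with SLC22A18. The 3 listed neighbours that follow PHLDA2 were not called. NAP1L4, a histone chaperone, differed by 0.06 ± 0.14 on the log2 scale (edgeR adjusted p = 0.787), and OSBPL5, a lipid transfer protein, by -0.03 ± 0.16 (0.912). CARS, a cysteinyl-tRNA synthetase gene, was at 83.8 and 70.05 normalized CPM in the knockouts and at 89.8 and 89.1 in the controls (-0.22 ± 0.14, edgeR adjusted p = 0.294). Of the 9 tested neighbours, 3 had both knockouts above both controls (KCNQ1, SLC22A18AS and NAP1L4) and 2 had them below (CARS and TSSC4). Over all genes tested, 31.8% had the knockouts higher in this way and 34.1% had them lower. Without regard to imprinting, 21 genes besides KCNQ1OT1 were tested within 1 Mb of it, a window chosen after the data were seen. Their median log2 fold change was -0.22. The window is not a separate set, since it holds the 9 neighbours above, MRPL23 and the members CDKN1C, PHLDA2, SLC22A18 and H19. Of the 21 genes, TSSC4, already counted above, the zinc finger gene ZNF195 (-1.30 ± 0.15) and the nicotinic receptor subunit CHRNA10 (-1.82 ± 0.37) were called lower. By edgeR 0 of the 21 were called higher, with 1 at an unadjusted p under 0.05 and 0 by DESeq2. CHRNA10 was not called without control replicate 1 or 3 (edgeR adjusted p = 0.156 and 0.0939). The 3 lower genes make up 14.3% of the window, beside 12.9% of all genes tested, and the 0 called higher stand beside 9.87%.

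**Figure D2:**
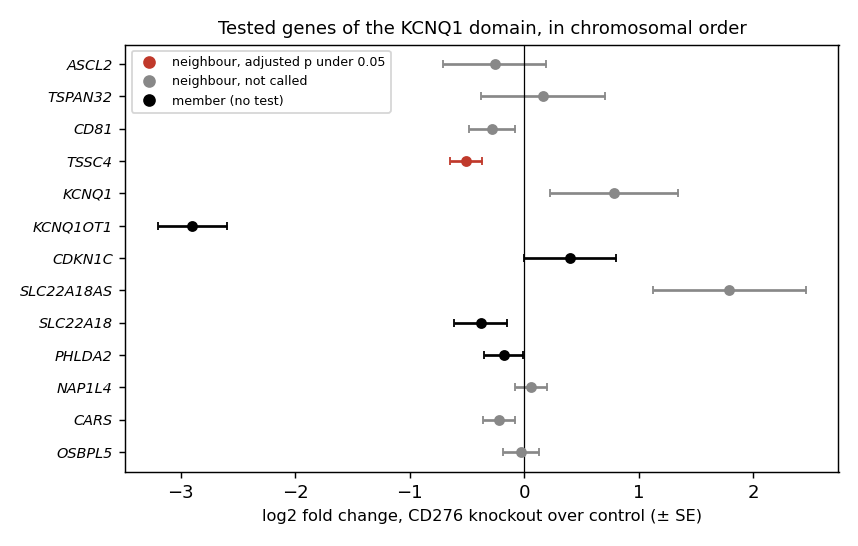
Log2 fold change of knockout over control ± SE (x axis) for the 13 tested genes of the KCNQ1 domain, in chromosomal order from top to bottom; black marks the members described without a test, red the called neighbour and grey the neighbours not called. KCNQ1OT1 at -2.90 stands apart from the others, which lie between -0.51 and 1.79.

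At the other imprinted cluster of the same chromosome arm, H19 and IGF2 were scarce. H19, a maternally expressed non-coding RNA that hosts a microRNA (chromosome 11, 1995176 to 2001470, minus strand), had 144 and 87 counts in the knockouts and 51 and 77 in the controls. Its level was 5.48 and 3.36 normalized CPM in the knockouts and 2.28 and 3.98 in the controls, so the groups overlapped, with knockout replicate 1 highest. The log2 fold change was 0.51 ± 0.37, and 0.13 to 0.95 when 1 library was left out. H19 shares 2.52% of its exonic bases with MIR675 and 4.83% with small RNA family entries on the opposite strand.

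IGF2, the paternally expressed insulin-like growth factor, had 16 and 9 counts in the knockouts and 8 and 8 in the controls, or 0.609 and 0.348 normalized CPM against 0.358 and 0.413. It was too low to test and is the only 1 of the 10 genes that was not. GENCODE 29 has more than 1 entry named IGF2, and INS-IGF2 shares exons with it, so reads of shared exons may not have been counted. INS, INS-IGF2, IGF2-AS and TH had 0 counts in every library. MRPL23, a mitochondrial ribosomal protein gene beside H19, was the only 1 of 10 listed neighbours of this cluster with enough counts to test. It was at 14.8 and 26.2 normalized CPM in the knockouts and at 29.7 and 25.04 in the controls and was not called (-0.42 ± 0.26, edgeR adjusted p = 0.265). The MRPL23 difference was -0.82 without knockout replicate 3, -0.05 without knockout replicate 1 and 0.08 with GC and length offsets.

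PEG10 and MEST, paternally expressed genes of chromosome 7, were higher in both knockout libraries than in both controls. PEG10, a protein-coding gene derived from a retrotransposon and needed for the mouse placenta (94656325 to 94669695, plus strand), was at 987 and 812 normalized CPM in the knockouts and at 633 and 685 in the controls. The mean was 899 ± 123 in the knockouts and 659 ± 36.8 in the controls (SD, n = 2 each), a log2 fold change of 0.45 ± 0.18. Its head-to-head neighbour SGCE, the paternally expressed epsilon-sarcoglycan gene, was at 54.5 and 69.6 normalized CPM in the knockouts and at 42.4 and 44.8 in the controls. The SGCE difference was 0.51 ± 0.16 and missed the threshold (edgeR adjusted p = 0.0517). It passed with DESeq2 (adjusted p = 0.0355), with scaling by library totals (edgeR adjusted p = 0.0286) and with GC and length offsets (0.037). The SGCE difference was 0.69 without knockout replicate 1 and 0.39 without knockout replicate 3. Without control replicate 1 or 3 it was 0.47 and 0.55 and missed the threshold again. PEG10 shares 3.27% of its exonic bases with SGCE.

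MEST, which encodes an alpha/beta-hydrolase-like protein of mesoderm (130486171 to 130506465, plus strand), was at 138 and 161 normalized CPM in the knockouts and at 106 and 93.8 in the controls. The mean was 149 ± 16.2 in the knockouts and 99.9 ± 8.62 in the controls (SD, n = 2 each), a log2 fold change of 0.58 ± 0.15. It shares 27.4% of its exonic bases with COPG2, MESTIT1 and a further gene on the opposite strand, and counting had a strand setting not given in the sources used here. COPG2 was at 29.8 and 30.04 normalized CPM in the knockouts and at 28.4 and 23.5 in the controls. MESTIT1, the antisense RNA within MEST, had 4 and 16 counts in the knockouts and 9 and 5 in the controls.

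PEG3, a paternally expressed zinc finger gene of chromosome 19 (56810077 to 56840728, minus strand), varied more within the groups than between them. It was at 4.91 and 1.39 normalized CPM in the knockouts and at 4.08 and 2.07 in the controls, with replicate 1 above replicate 3 in each group. The log2 fold change was 0.03 ± 0.56, and it ran from -1.14 to 0.73 when 1 library was left out. PEG3 shares 12.9% of its exonic bases with ZIM2, which had at most 2 counts in any library.

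GNAS, which encodes the stimulatory G protein alpha subunit, is imprinted in a few tissues and for some of its alternative first exons (chromosome 20, 58839718 to 58911192, plus strand). It was at 854 and 1318 normalized CPM in the knockouts and at 1658 and 1518 in the controls, so that both knockouts lay below both controls. The mean was 1086 ± 328 in the knockouts and 1588 ± 99.02 in the controls (SD, n = 2 each), a log2 fold change of -0.55 ± 0.23. It was -0.83 without knockout replicate 3 and -0.26 without knockout replicate 1. Counts per gene do not separate its alternative promoters. GNAS-AS1, the paternally expressed antisense RNA, had 1 count in all 4 libraries together.

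Read per kb of all annotated exon bases, PHLDA2, GNAS and PEG10 stood highest of the 9 genes with an annotated exon length. In normalized CPM per kb of exon, PHLDA2 stood at 115 ± 24.01 in the knockouts and 130 ± 8.81 in the controls. PEG10 stood at 134 ± 18.4 in the knockouts and 98.5 ± 5.50 in the controls, and GNAS at 81.5 ± 24.6 and 119 ± 7.43 in the same order (SD, n = 2 each). By this measure the order in the controls was PHLDA2, GNAS, PEG10, MEST, SLC22A18, CDKN1C, H19, PEG3 and KCNQ1OT1. The control values of PHLDA2 and GNAS overlapped, with 124 and 136 against 125 and 114. The length joins the exons of all annotated transcripts of a gene, 13320 bases for GNAS and 955 for PHLDA2. A gene whose transcripts use only some of these bases reads too low, so the order is not one of transcript abundance. In the knockouts the values of PEG10 and PHLDA2 overlapped, as did those of PHLDA2 and GNAS. KCNQ1OT1 came last in both groups, at 0.0207 ± 0.00896 in the knockouts and 0.155 ± 0.00193 in the controls, since its counts spread over 91667 bases.

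The 9 members with enough counts were part of the fit over all genes, and their p-values are not given. Both knockouts lay above both controls for PEG10 and MEST and below them for KCNQ1OT1 and GNAS, beside 65.9% of all genes tested whose groups did not overlap in either direction (31.8% with the knockouts higher and 34.1% with them lower). Since the members were chosen with this contrast known, nothing is read from these separations. In the KCNQ1 domain the median log2 fold change of the 4 members was -0.28, with a range of -2.90 to 0.40. Over the 5 tested members elsewhere it was 0.45, with a range of -0.55 to 0.58, and over all genes tested 0.00.

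Other known imprinted genes were called in both directions, and none of the shares below is read as particular to them. Of 30 further paternally expressed genes listed, 27 were in the table, 18 were tested, 1 was called higher (5.56%, beside 9.87% of all genes) and 2 lower (11.1%, beside 12.9%), with a median log2 fold change of 0.18. Of 17 further genes expressed from the maternal copy or in an isoform-dependent way, 10 were tested, with a median of 0.09. Of these 0 were called higher (beside 9.87% of all genes) and 1 lower (10%, beside 12.9%). In the second list 4 were higher and 1 lower at an unadjusted edgeR p under 0.05, beside 3230 and 3767 of all 18043 genes. DESeq2 called 0 and 1, beside 1883 and 2142. All calls in both lists but that of PEG13 were lost without control replicate 1 and without control replicate 3, and that of PEG13 only without control replicate 1. Without knockout replicate 1 or 3 more of the paternally expressed genes were called higher, as was also so over all genes tested.

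PEG13, a paternally expressed non-coding RNA of chromosome 8, had the largest difference of both lists. It lies within TRAPPC9 on the same strand and has 1 annotated exon of 5650 bases, in which it resembles KCNQ1OT1 as an unspliced RNA inside another gene. Counts over these bases cannot separate PEG13 from unspliced RNA of TRAPPC9. PEG13 had 8 and 4 counts in the knockouts and 52 and 37 in the controls, or 0.305 and 0.155 normalized CPM against 2.33 and 1.91. The log2 fold change was -3.18 ± 0.52 (edgeR adjusted p = 0.00671), and the adjusted p was 0.0694 without control replicate 1. The host gene TRAPPC9 was at 49.5 and 54.7 normalized CPM in the knockouts and at 43.2 and 48.1 in the controls, and was not called (0.19 ± 0.15, edgeR adjusted p = 0.366).

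ZNF331, a zinc finger gene with imprinted isoforms on chromosome 19, fell to 28.6 and 24.5 normalized CPM in the knockouts, against 53.9 and 56.3 in the controls (-1.05 ± 0.15, edgeR adjusted p = 0.00493). Without control replicate 1 or 3 the adjusted p was 0.0568 and 0.0561. L3MBTL1, a chromatin-binding protein of chromosome 20, fell to 8.45 and 7.04 normalized CPM, against 14.6 and 13.9 in the controls (-0.88 ± 0.20, edgeR adjusted p = 0.0172, and 0.247 and 0.161 without control replicates 1 and 3). MKRN3, a paternally expressed ubiquitin ligase gene of the Prader-Willi region of chromosome 15 in which loss of function causes early puberty, rose. It was at 10.6 and 10.2 normalized CPM in the knockouts and at 6.18 and 6.14 in the controls (0.75 ± 0.20, edgeR adjusted p = 0.0322, and 0.351 and 0.301 without control replicates 1 and 3).

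The neighbours of MKRN3, named after their values were seen, did not pass the test over all 4 libraries. NDN, which encodes necdin, was at 3.50 and 4.41 normalized CPM in the knockouts and at 2.33 and 2.12 in the controls (0.83 ± 0.30, edgeR adjusted p = 0.0773). It passed with GC and length offsets (edgeR adjusted p = 0.046). The NDN difference was 0.99 without knockout replicate 1 and 0.72 without knockout replicate 3. MAGEL2 had 17 and 49 counts in the knockouts and 11 and 11 in the controls (1.25 ± 0.61, edgeR adjusted p = 0.166). Its log2 fold change was 1.84 without knockout replicate 1 and 0.36 without knockout replicate 3. Farther along the same region, SNRPN was at 66.95 and 99.2 normalized CPM in the knockouts and at 86.1 and 88.6 in the controls (-0.07 ± 0.19, edgeR adjusted p = 0.809). SNHG14, the long RNA that runs antisense to UBE3A, was at 67.98 and 65.2 in the knockouts and at 100.1 and 81.99 in the controls (-0.45 ± 0.15, edgeR adjusted p = 0.0569). SNURF (-0.27 ± 0.39), PWAR5 (0.04 ± 0.33) and PWAR6 (-0.25 ± 0.22) of the same region were not called either. Of the listed paternally expressed genes of this region only MKRN3 was called, so no split by direction is read from the others.

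**Figure D3:**
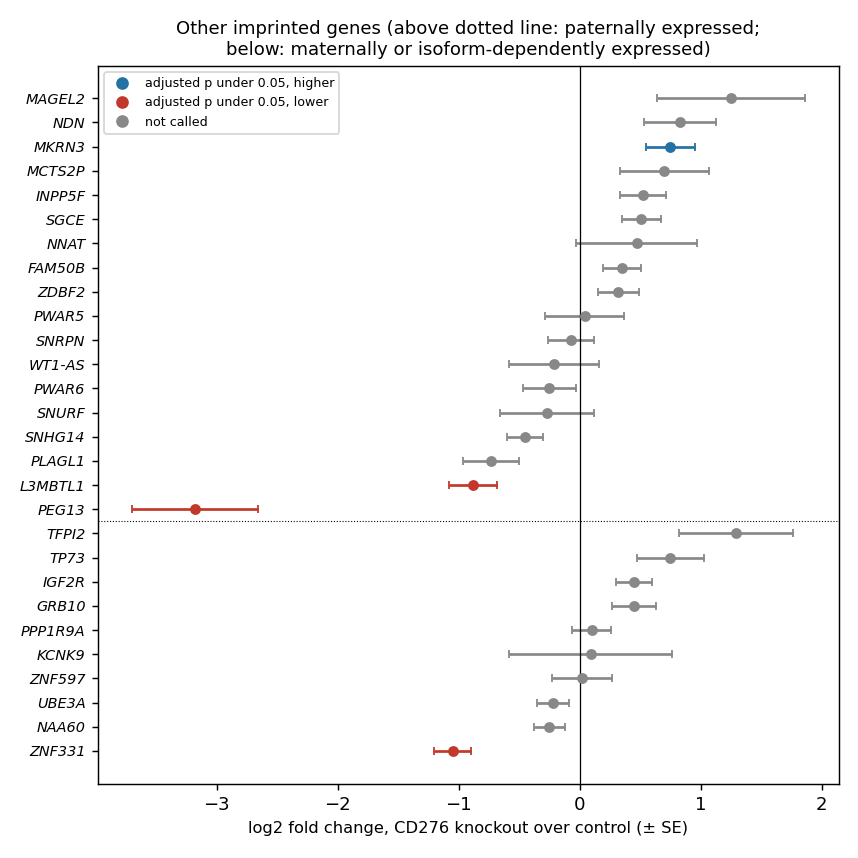
Log2 fold change of knockout over control ± SE (x axis) for 18 paternally expressed genes (above the dotted line) and 10 maternally or isoform-dependently expressed genes (below it), sorted by value; blue marks genes called higher, red genes called lower and grey those not called. PEG13 at -3.18, ZNF331 at -1.05 and L3MBTL1 at -0.88 were called lower and MKRN3 at 0.75 higher.

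Some other nuclear and unspliced non-coding RNAs were called lower in the knockouts, and their part in the KCNQ1OT1 difference was not tested. Of 7 further nuclear long non-coding RNAs tested, edgeR called 2 lower (28.6%, beside 12.9% of all genes tested) and 0 higher (beside 9.87%). At an unadjusted edgeR p under 0.05, 5 were lower and 0 higher, beside 3767 and 3230 of all 18043 genes. DESeq2 called 1 lower and 0 higher, beside 2142 and 1883, and the median log2 fold change was -0.52. MALAT1, which gathers in nuclear speckles, fell to 394 and 570 normalized CPM in the knockouts, against 2653 and 2257 in the controls (-2.35 ± 0.24, edgeR adjusted p = 0.00234). NEAT1, the scaffold of paraspeckles, fell to 387 and 145 normalized CPM in the knockouts, against 632 and 652 in the controls (-1.27 ± 0.37, edgeR adjusted p = 0.0411). The call of NEAT1 was lost with DESeq2 (adjusted p = 0.178), with scaling by library totals (edgeR adjusted p = 0.0651) and without control replicate 1 (0.121) or 3 (0.102). Its log2 fold change was -2.14 without knockout replicate 1 and -0.66 without knockout replicate 3.

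Not all RNAs on this list were low in the knockouts, and where each lies in the cell was not measured. OIP5-AS1 was at 190 and 174 normalized CPM in the knockouts and at 157 and 147 in the controls (0.26 ± 0.14, edgeR adjusted p = 0.195). Among 44 other non-coding genes with a single-exon annotation of at least 5 kb, a group formed after the data were seen, 1 was called higher and 10 lower, with a median log2 fold change of -0.49. The 22.7% called lower stand beside 12.9% of all genes tested, and the 2.27% called higher beside 9.87%. Likewise grouped after the data were seen were 177 sense intronic genes, the annotation class of PEG13. Of these edgeR called 0 higher (beside 9.87% of all genes) and 56 lower (31.6%, beside 12.9%). At an unadjusted edgeR p under 0.05, 1 was higher and 86 lower, beside 3230 and 3767 of all 18043 genes. DESeq2 called 0 and 43, beside 1883 and 2142, and the median log2 fold change was -0.98.

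**Figure D4:**
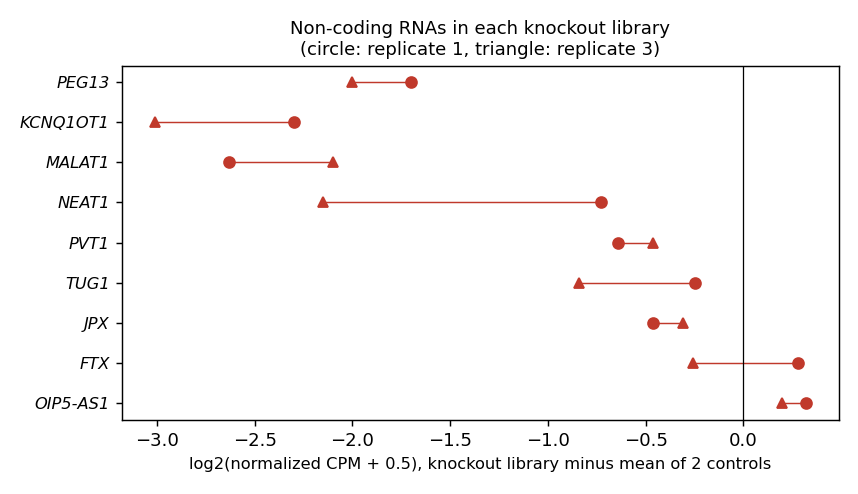
Difference of log2(normalized CPM + 0.5) between each knockout library and the mean of the 2 controls (x axis) for KCNQ1OT1, PEG13 and 7 nuclear long non-coding RNAs; circles are knockout replicate 1 and triangles knockout replicate 3. KCNQ1OT1 lies at -2.30 and -3.01, MALAT1 at -2.63 and -2.10, and OIP5-AS1 above 0 in both knockout libraries.

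The 5 genes whose pattern over the 4 libraries was closest to that of KCNQ1OT1 were FAR2P3, NPIPB5, MT-TH, FAR2P2 and NPIPB4, out of 15254 tested genes with a mean of at least 1 normalized CPM. Likeness was the Euclidean distance between log2(normalized CPM + 0.5) values centred on the mean of the controls, and it ran from 0.16 to 0.36. FAR2P3, a transcribed pseudogene, was at 3.54 and 2.32 normalized CPM in the knockouts and at 21.1 and 21.9 in the controls. NPIPB5, of a segmentally duplicated family, was at 6.17 and 4.41 in the knockouts and at 37.5 and 32.2 in the controls, and its relative NPIPB4 at 11.1 and 7.73 against 64.2 and 48.5. MT-TH, the mitochondrial histidine tRNA gene, was at 1.30 and 0.619 in the knockouts and at 8.42 and 6.92 in the controls. FAR2P2, a pseudogene close in sequence to FAR2P3, was at 1.18 and 0.889 in the knockouts and at 9.49 and 8.88 in the controls. Reads of near-identical copies could be split among the FAR2 pseudogenes and NPIPB genes. None of the 5 was on the imprinted lists.

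Most of the factors that maintain imprints were detected. Of 15 tested out of 18 listed, 4 (26.7%, beside 12.9% of all genes) were called lower and 0 (beside 9.87%) higher by edgeR. At an unadjusted edgeR p under 0.05, 6 were lower and 1 higher, beside 3767 and 3230 of all 18043 genes. DESeq2 called 5 lower and 1 higher, beside 2142 and 1883, and the median log2 fold change was -0.26. HELLS, a chromatin remodeller needed for DNA methylation, fell to 81.95 and 66.4 normalized CPM in the knockouts, against 135 and 125 in the controls (-0.81 ± 0.15, edgeR adjusted p = 0.0097). The related retinoblastoma-binding proteins ARID4A and ARID4B take part in imprinting of the Prader-Willi region in the mouse. ARID4A fell to 20.7 and 19.02, against 34.6 and 35.1 in the controls (-0.81 ± 0.15, edgeR adjusted p = 0.0103), and ARID4B to 67.98 and 64.9, against 112 and 110 (-0.74 ± 0.13, edgeR adjusted p = 0.00796). ARID4B shares 14.5% of its exonic bases with RBM34 on the same strand, and reads of the shared bases cannot be assigned to either. EZH2, the Polycomb methyltransferase, fell to 129 and 99.4 normalized CPM, against 192 and 176 in the controls (-0.69 ± 0.16, edgeR adjusted p = 0.0199). None of the 4 was called without control replicate 1 or without control replicate 3.

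DNMT1, which copies DNA methylation to the new strand, was at 349 and 244 normalized CPM in the knockouts and at 370 and 396 in the controls, and was not called (-0.37 ± 0.19, edgeR adjusted p = 0.191). TRIM28, the corepressor recruited by ZFP57 and ZNF445, was at 895 and 924 in the knockouts and at 1342 and 1263 in the controls (-0.52 ± 0.17, edgeR adjusted p = 0.062). ZNF445, the other zinc finger protein known to protect imprints, was at 33.97 and 22.4 in the knockouts and at 33.0 and 34.3 in the controls (-0.26 ± 0.21, edgeR adjusted p = 0.397). CTCF, an insulator protein that acts at the H19 and IGF2 cluster, was at 107.5 and 62.0 in the knockouts and at 52.9 and 54.7 in the controls. It was not called (0.66 ± 0.23, edgeR adjusted p = 0.0726), and knockout replicate 1 lay far above the other 3 libraries. CTCFL and DPPA3, germline and early embryo factors, had 0 counts in every library, as ZFP57 did.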

How the data were processed

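The libraries are poly(A)-selected and paired-end, per the labels' protocols. The table the authors deposited holds raw counts by gene name, as whole numbers with unequal totals. Trimmomatic 0.36, STAR 2.5.2b, featureCounts (Subread 1.5.2) and GRCh38 appear in the submitters' processing notes. Strand setting, multi-mapping treatment and annotation release: not given in the sources used here. Of 57500 rows, 486 had no gene name (0.0191% to 0.0290% of each library) and were left out.

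Low genes were removed with filterByExpr. TMM factors were 1.075 and 1.003 in knockout replicates 1 and 3, against 0.962 and 0.965 in control replicates 1 and 3. The fit was edgeR 4.0.16 under R 4.3.3 (glmQLFit, robust=TRUE, groups only, leaving 2 residual degrees of freedom), with Benjamini-Hochberg adjustment over the whole table. On counts simulated with a common spread for all genes and 192 to 196 changed genes tested, it recovered 0% of 1.5-fold, 55.7% of 2-fold and 97.4% of 4-fold changes. The adjustment is stricter when fewer genes change, and 22.8% of genes were called in the real counts. These rates are therefore not the sensitivity of the fit to the real counts. A gene that was not called is not shown to be unchanged. The SE is the log2 fold change divided by the square root of F. Positions, lengths and exon overlap came from GENCODE 29 (GRCh38, 1-based) and promoters from RefSeq (GRCh38.p14). The members and lists were chosen with earlier results of these data known. Named are the members, CD276, the called genes with the 3 smallest p of each list (or the smallest p where none was called) and the 5 genes most like KCNQ1OT1. Others, including EZH2, TRAPPC9, ZNF195, CHRNA10, SGCE and the uncalled factors, were chosen after their values were seen. Alternatives were RLE, upper quartile and total scaling, no filter or a filter at 50 counts, DESeq2 1.42.0, the replicate number as a block, GC and length offsets (mgcv 1.9.3), and leaving out each library. Leaving out 1 library leaves 1 in its group, so the spread then comes from the other group alone.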

Additional observations from a re-analysis of the deposited data

How the results depend on the processing

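KCNQ1OT1 was lower in the knockouts under every alternative run, from -3.41 to -1.55. Over all genes 1780 were higher and 2331 lower, so 43.3% of the calls were higher. Scaling by library totals gave 2340 and 1781 (56.8% higher) and shifted the median over all genes by 0.10. Leaving out 1 library gave 45 to 4795 higher and 267 to 4471 lower, with fewer calls without a control and more without a knockout. The same replicate numbers in both groups are not said to pair libraries, and same-numbered deviations correlated at -0.02; with the replicate number as a block 2062 genes were higher and 2781 lower. With this block, 2 paternally expressed genes and 1 maintenance factor were called higher, and 5 nuclear RNAs lower, against 1, 0 and 3 without it. All counts of nuclear RNAs in this section include KCNQ1OT1, a member chosen with its low level known. The 7 nuclear RNAs counted further above do not include it. Among the KCNQ1 domain neighbours, 0 were called lower with library totals or with GC and length offsets. Among other paternally expressed genes, 2 were called higher with RLE, library totals, no filter or DESeq2 and 4 with GC and length offsets, and 4 were called lower with upper quartile scaling or these offsets. Among maternally expressed genes, 1 was called higher with library totals or the offsets and 2 with no filter. With no filter or DESeq2, 1 maintenance factor was called higher, and with no filter 5 nuclear RNAs were called lower. MRPL23 changed sign to 0.08 with the offsets. When 1 library was left out, the counts ran from 0 to 2 lower for KCNQ1 domain neighbours, 0 to 1 lower for H19 and IGF2 neighbours, 0 to 6 higher and 0 to 5 lower for paternally expressed genes, and 0 to 4 higher and 0 to 2 lower for maternally expressed genes. They ran from 0 to 4 higher and 0 to 10 lower for maintenance factors and from 0 to 1 higher and 2 to 5 lower for nuclear RNAs. The median of the members tested, 0.03, ran from -0.34 to 0.15. The cause of these shifts was not tested. IGF2 and KCNQ1 had at most 25 counts in any library, which limits what could be detected for them.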
